A study of Mus musculus with 6 samples.

Results

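Molecular chaperones and folding enzymes were followed in horizontal basal cells of the mouse olfactory epithelium 18 h after a chemical lesion. The set comprised every entry of the deposited table with a single gene symbol of the Hsp70, Hsp110, Hsp90, small heat shock protein, mitochondrial chaperonin, J-domain, TRiC, BAG, protein disulphide isomerase, FK506-binding protein or cyclophilin families. Genes entered by symbol, under a rule set with earlier results of these data known, and 76 of the 8078 listed genes matched. The 3 injured libraries came from mice that had breathed 180 ppm of methyl bromide (MeBr) gas for 8 h and were sampled 18 h later, and the 3 uninjured libraries from mice without the gas. All mice were 12 weeks old and carried B6;KRT5-CreER;Ai9 fl(Stop)TdTomato, a combination in which the keratin 5 promoter drives a tamoxifen-dependent Cre recombinase that switches on a red fluorescent protein. Tamoxifen had been given 2 weeks before the cells of dissociated olfactory epithelium were sorted on that fluorescence, in both groups. Each library pooled cells of several animals, and nothing in the labels says whether an animal gave cells to more than one library.

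Horizontal basal cells serve this epithelium as reserve stem cells and stay quiescent until the tissue above them is lost. Chaperones of the Hsp70 class bind exposed stretches of unfolded protein under the control of J-domain proteins, which deliver substrates, and of nucleotide exchange factors such as Hsp110, which release them. Hsp90 finishes the folding of kinases and receptors, the ring-shaped TRiC complex encloses actin, tubulin and other proteins, and the endoplasmic reticulum and the mitochondrion each hold folding machines of their own. Cells raise the cytosolic machines through heat shock factors and those of the endoplasmic reticulum through the unfolded protein response.

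In both injured replicates 1 and 3, all 5 tested TRiC subunits, 7 of 8 Hsp70 and Hsp110 members, both Hsp90 genes and both mitochondrial chaperonin genes exceeded every uninjured library, as did 29.4% of all genes. The same held for both disulphide isomerases, Hspbp1, 12 of 28 J-domain proteins, 2 of 8 cyclophilins, 1 of 4 small heat shock proteins, 1 of 4 BAG cochaperones and 1 of 9 FK506-binding proteins. Replicates 1 and 3 were set apart with the values known. Injured replicate 2 was the lowest injured library for 52 of the 73 members tested (71.2%, against 46.8% of all genes). Injured replicate 2 exceeded every uninjured library for 15 of the 73 members tested (20.5%), a smaller share than the 33.9% of all genes, and no member passed the test over the 6 libraries. The test was limma on log2(FPKM + 1) across the 7987 genes that averaged 1 FPKM or more (fragments scaled to gene length and library size), as 73 of the 76 members did. With limma 0 of 73 members were called at a Benjamini-Hochberg adjusted p of 0.05, against 0.0125% of all genes tested, and a plain limma fit with neither trend nor robust variances also called 0 members, against 0.0376% of all genes higher and 0.0376% lower. With unadjusted p-values, 11 members passed 0.05 as higher and 1 as lower in injured libraries, against 7.15% and 4.04% of all genes. All 3 injured libraries exceeded all uninjured ones for 11 members (12.0% of all genes) and lay below them for 5 (6.75% of all genes), and these last 2 counts are shares near the background.

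The median change, injured minus uninjured, was 0.32 over the 73 members and 0.30 over all 76 without a filter, beside 0.16 over all genes tested. Without injured replicate 1 the members' median of 0.09 was below the 0.15 of all genes, and without injured replicate 2 the medians were 0.48 and 0.18. Of the 73, 48 had a positive change (65.8%, against 62.9% of all genes). After upper-quartile scaling the median was 0.14 against -0.01 for all genes, with 37 of 73 positive (50.7%, against 49.1% of all genes). Changes below are log2 differences of FPKM + 1, a scale that shrinks the differences of low genes, and they stand beside that shift of all genes. Levels are in FPKM, for replicates 1, 2 and 3 of each group in turn. Group means carry the SD over n = 3 libraries.

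Summed FPKM was 164265 to 231755 in injured and 188498 to 215604 in uninjured libraries. The members took 1.98%, 1.44% and 1.86% of that sum in injured replicates 1 to 3 and 1.25%, 1.35% and 1.22% in uninjured replicates 1 to 3. Leaving out Mir703, an entry that held 8.01% to 18.6% of the sum in injured and 22.0% to 25.4% in uninjured libraries, the shares were 2.16%, 1.63% and 2.29% in injured and 1.68%, 1.74% and 1.63% in uninjured replicates 1 to 3. The basal cell regulator Trp63 was at 112.5, 99.5 and 140.4 FPKM in injured and 187, 194 and 157 in uninjured libraries. Of the same list, Icam1, Itga6, Itgb4 and Cav1 instead exceeded every uninjured library in injured replicates 1 and 3, but not in replicate 2. Cav1 was at 24.0, 4.56 and 21.5 FPKM in injured and 4.42, 3.48 and 5.41 in uninjured libraries. Egfr, Perp and Col17a1 followed neither pattern. Markers of other cells were present too: 9 of 10 immature neuron and globose basal cell markers had an entry and summed to 28.6 to 385 FPKM in injured libraries, with the 385 in replicate 2, and to 36.8 to 56.7 in uninjured ones. The 7 of 10 mature neuron markers with an entry summed to 126 to 361 and 435 to 748 FPKM in injured and uninjured libraries, the 7 of 10 sustentacular ones to 268 to 702 and 379 to 427, and the 8 of 10 basal cell ones to 311 to 641 and 468 to 1210. Without Krt18, the most abundant sustentacular marker, the other 6 summed to 144 to 173 in injured and 246 to 265 in uninjured libraries. Without Perp, the most abundant basal cell marker, the other 7 summed to 312, 199 and 407 in injured replicates 1 to 3. In uninjured libraries these 7 summed to 327 to 353. Without Stoml3, the most abundant mature neuron marker, the other 6 summed to 34.6, 194 and 31.7 in injured replicates 1 to 3. In uninjured libraries those 6 summed to 119 to 196. The 3 of 9 stromal markers summed to 32.8 to 101 in injured and 126 to 220 in uninjured libraries, the 6 of 10 leukocyte ones to 31.7 to 108 and 19.8 to 54.4, the 2 of 10 gland ones to 1182 to 2290 and 3060 to 4992, and the 5 of 7 ciliated ones to 36.9 to 57.3 and 50.02 to 101. None of these markers averaged under 1 FPKM, and 0 of 6 endothelial ones had an entry. Without Dcn, the most abundant stromal marker, the other 2 overlapped, at 15.2 to 73.5 in injured and 10.5 to 57.8 in uninjured libraries. In a sorted bulk sample, a different mix of cells and a different RNA level per cell cannot be told apart. Xist was at 0.0645 to 0.561 FPKM in injured and 27.0 to 33.8 in uninjured libraries. The Y-linked Eif2s3y was at 21.1 to 29.3 FPKM in injured libraries and at 18.8, 2.73 and 2.55 in uninjured replicates 1, 2 and 3, so that uninjured replicate 1 held both Xist and Y-linked RNA. The labels do not state the sex of the mice, and injury and sex cannot be told apart in what follows.

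**Figure D1:**
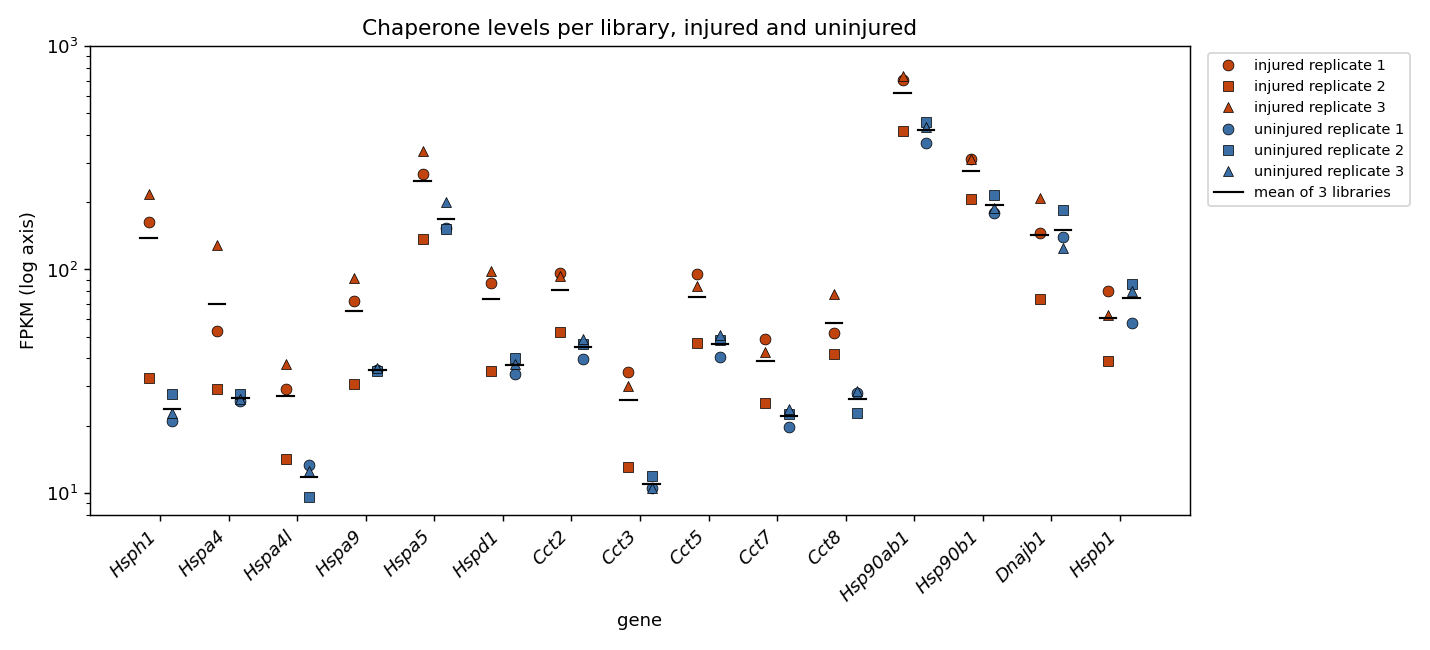
FPKM of 15 members on a log axis, with 1 point per library (red, injured; blue, uninjured; circle, square and triangle for replicates 1, 2 and 3) and a line at each group mean. The 15 were picked from the named members with earlier results of these data known. Injured replicates 1 and 3 lie above the uninjured libraries for the first 13 genes, and injured replicate 2 lies at or near the uninjured level for most of them. Replicates 1 and 3 both did so for 36 of the 73 tested members (49.3%) and for 29.4% of all genes.

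The largest positive change in the Hsp70 and Hsp110 family belonged to Hsph1, the Hsp110 that resets Hsp70 by exchanging its nucleotide. It was at 163, 32.6 and 219 FPKM in injured libraries and 21.1, 27.7 and 22.9 in uninjured ones, a mean of 138 ± 95.4 against 23.9 ± 3.43. All 3 injured libraries were higher, but replicate 2 by little. The fitted change was 2.11 with a standard error of 0.66 (limma adjusted p = 0.360), and without injured replicate 2 it was 2.94 (adjusted p = 0.00407). Without injured replicate 3 it was 1.58 (adjusted p = 0.514). Hspa4, a second Hsp110-type factor, was at 53.0, 29.1 and 128 FPKM in injured and 25.8, 27.7 and 26.3 in uninjured libraries. The uninjured libraries were tightly grouped and injured replicate 2 stood just above them, with a change of 1.11 ± 0.47 (SE, adjusted p = 0.425) that was 0.55 without injured replicate 3. Hspa4l, the third of this type, was at 29.1, 14.3 and 37.9 FPKM in injured and 13.4, 9.56 and 12.5 in uninjured libraries, again without overlap, with a change of 1.04 ± 0.35 (SE, adjusted p = 0.360).

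Hspa14 and Dnajc2, which in human cells form a chaperone pair on the ribosome, both lay above every uninjured library. Hspa14 was at 13.4, 7.27 and 10.03 FPKM in injured and 7.16, 3.93 and 5.15 in uninjured libraries, with injured replicate 2 only just higher than uninjured replicate 1. Its partner Dnajc2 was at 39.8, 13.6 and 22.8 FPKM in injured and 10.4, 13.3 and 12.1 in uninjured libraries. Their changes were 0.80 ± 0.31 and 0.91 ± 0.36 (SE, adjusted p = 0.393 and 0.397), and that of Dnajc2 was 0.53 without injured replicate 1. Hspa13, a microsomal Hsp70 relative, was low, at 6.93, 2.75 and 8.24 FPKM in injured and 4.53, 3.51 and 3.07 in uninjured libraries, so that the groups overlapped.

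Hspa2, an Hsp70 best known from the testis, was the member of this family with a negative change. It was at 9.17, 6.95 and 8.10 FPKM in injured and 9.87, 9.42 and 13.4 in uninjured libraries, which did not overlap although the gap was narrow (change -0.38 ± 0.26, SE, adjusted p = 0.586). Hspbp1, which strips nucleotide from Hsp70 and restrains its folding cycle, was at 18.5, 5.85 and 13.9 FPKM in injured and 3.42, 3.07 and 6.83 in uninjured libraries. Injured replicate 2 lay within the uninjured range here, and the change was 1.27 ± 0.43 (SE, adjusted p = 0.360). That change was 1.71 (adjusted p = 0.0420) without that library, but 0.96 (adjusted p = 0.573) without injured replicate 1. Over the 8 members of the Hsp70 and Hsp110 family 7 changes were positive, the median was 0.76, and 4 members were higher and 1 was lower without overlap (12.0% and 6.75% of all genes).

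In mitochondria, newly imported proteins are pulled in by Hspa9 and folded in the barrel of Hspd1 with its lid Hspe1. Hspa9 was at 72.2, 30.8 and 92.0 FPKM in injured and 35.6, 35.2 and 36.1 in uninjured libraries. Injured replicates 1 and 3 were far above the closely grouped uninjured level and replicate 2 was below it, with a change of 0.71 ± 0.39 (SE, adjusted p = 0.515; 1.17 and adjusted p = 0.0378 without injured replicate 2, but 0.40 and adjusted p = 0.747 without injured replicate 3). Hspd1 was likewise high in injured replicates 1 and 3 and within the uninjured range in replicate 2. It was at 87.3, 35.2 and 98.4 FPKM in injured and 34.0, 40.4 and 37.6 in uninjured libraries. Its change was 0.83 ± 0.39 (SE, adjusted p = 0.459). That change was 1.29 (adjusted p = 0.0322) without injured replicate 2, but 0.56 (adjusted p = 0.678) without injured replicate 3. Hspe1 was at 59.1, 27.8 and 67.7 FPKM in injured libraries and at 27.6 and 29.6 in uninjured replicates 2 and 3, while uninjured replicate 1 listed it at the table's lowest value of 0.001. The fitted change of 2.36 ± 1.48 (SE, adjusted p = 0.585) rests on that listing, in a library where Hspd1 was at 34.0 FPKM, and it was 0.73 (adjusted p = 0.695) without that library. Processed copies of these genes exist: the mouse gene name table lists 5 pseudogenes of Hspd1, 6 of Hspe1 and 1 of Hspa9 by name, and how reads that match several copies were counted was not given.

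Hspd1 and Hspe1 lie head to head on chromosome 1, and the stretch between them holds a heat shock element, the binding motif of heat shock factors. The motif searched was a run of the units GAA, TTC and GAA with 2 bases of any kind between neighbours, on both strands in RefSeq windows of 250 bases before to 50 from the annotated start (GRCm38.p6, another build than the mm9 of the submitters' processing notes). Windows were found for 65 of the 76 members. The 4 members with a match were Hspd1, Hspe1, Hsph1 and Dnajb6, which is 6.15% of the 65 beside 0.662% of 27025 genes with a window. Capitals mark the motif in the stretches below, which are shown because the motif is the one that heat shock factors bind and these are the members that hold it.
Hspd1-Hspe1: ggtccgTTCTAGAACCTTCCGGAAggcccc
Hsph1: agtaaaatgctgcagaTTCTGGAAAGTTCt
Dnajb6: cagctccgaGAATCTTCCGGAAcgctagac

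The shared stretch is chr1:55088053-55088082 on the plus strand, and its capitals hold 2 overlapping matches, from 89 to 72 bases before the Hspe1 start and from 144 to 127 bases before 1 of the 2 annotated Hspd1 starts. The Hsph1 stretch, chr5:149636287-149636316 on the minus strand, lies in the transcribed part, with its match 36 to 48 bases after the upstream one of 2 annotated starts. The Dnajb6 stretch is chr5:29735843-29735872 on the plus strand, with the match 46 to 34 bases before the upstream start. A match describes letters and not binding. Dnajb6, an inhibitor of protein aggregation, did not share the direction of the others: it was at 3.68, 26.0 and 30.1 FPKM in injured and 45.9, 28.0 and 30.4 in uninjured libraries, so that injured replicate 1 alone stood far below the rest. Its change was -1.15 ± 0.73 (SE, adjusted p = 0.582), and -0.27 without that library. The shorter palindromes GAANNTTC and TTCNNGAA each match inside the longer motif. They were in the windows of 12 (18.5%) and 7 (10.8%) of the 65 members. Of all genes with a window 9.04% and 9.60% held them, so the second share was near the background. GAANNTTC was in Bag3, Cct2, Dnaja4, Dnajb6, Fkbp4, Hspb1, Hspb6, Hspb8, Hspd1, Hspe1, Hsph1 and Ppih. TTCNNGAA was in Cct5, Dnajb4, Dnajb6, Dnajc10, Hspd1, Hspe1 and Hsph1. The changes of these holders went in both directions, from -1.15 for Dnajb6 to 2.36 for Hspe1.

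TRiC is a double ring of related subunits that work as 1 machine. All 5 tested subunits had a positive change, between 0.63 and 1.06 with a median of 0.79, which was 0.60 with upper-quartile scaling, 0.59 with quantile normalization and 0.63 without Mir703. Of the 5, 4 were higher without overlap (12.0% of all genes). Cct2 was at 96.4, 52.3 and 93.7 FPKM in injured and 39.7, 46.2 and 48.9 in uninjured libraries, with a change of 0.79 ± 0.32 (SE, adjusted p = 0.397). Cct3 was at 34.7, 13.02 and 30.3 FPKM in injured and 10.6, 11.9 and 10.6 in uninjured libraries, with a change of 1.06 ± 0.35 (SE, adjusted p = 0.350). In both, injured replicate 2 cleared the uninjured libraries by a small margin.

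Cct7 was at 48.9, 25.3 and 42.9 FPKM in injured and 19.8, 22.4 and 23.8 in uninjured libraries (change 0.75 ± 0.30, SE, adjusted p = 0.397). Cct8 was at 52.2, 41.9 and 78.0 FPKM in injured and 27.9, 22.8 and 28.4 in uninjured libraries, and it was the subunit whose injured replicate 2 stood clearest of the uninjured level. Its change of 1.05 ± 0.30 (SE) had the lowest adjusted p of the whole set, 0.277. Cct5 was at 95.7, 47.0 and 84.0 FPKM in injured and 40.6, 48.6 and 50.7 in uninjured libraries, and here injured replicate 2 lay inside the uninjured range (change 0.63 ± 0.33, SE, adjusted p = 0.495). Without injured replicate 2, Cct2, Cct3, Cct7 and Cct8 passed with adjusted p of 0.0457, 0.0164, 0.0441 and 0.0448. In that fit 3.52% of all genes were called higher. Without injured replicate 1 or without injured replicate 3 none of these subunits passed, with adjusted p between 0.452 and 0.604. In those fits 0.0126% and 0.00% of all genes were called higher. Tcp1, the first TRiC subunit, lies outside the symbol rule and was likewise higher in every injured library, at 109, 59.7 and 103 FPKM in injured and 43.7, 57.0 and 53.1 in uninjured libraries. Cct6b, known from the testis, stayed under the filter, at 0.001, 0.409 and 2.90 FPKM in injured and 0.638, 0.547 and 0.212 in uninjured libraries.

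Hsp90ab1, the constitutive cytosolic Hsp90, had the highest level of any member. It was at 702, 417 and 734 FPKM in injured and 368, 458 and 434 in uninjured libraries, a mean of 618 ± 175 against 420 ± 46.8. Injured replicates 1 and 3 were higher and replicate 2 lay within the uninjured range, with a change of 0.52 ± 0.38 (SE, adjusted p = 0.610). Fkbp4 and Ppid, isomerases that bind Hsp90, were likewise above every uninjured library in injured replicates 1 and 3 and not in replicate 2. Fkbp4, a cochaperone of steroid receptors, was at 105, 55.6 and 110.3 FPKM in injured and 52.1, 73.6 and 70.9 in uninjured libraries, with a change of 0.41 ± 0.34 (SE, adjusted p = 0.657). Ppid, a cyclophilin bound to Hsp90 and named here after its values were seen, was at 16.0, 8.95 and 20.7 FPKM in injured and 7.95, 8.16 and 9.68 in uninjured libraries. Hsp90aa1, Hspa1a and Hspa1b, the strongly heat-inducible forms, were not analysed here.

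**Figure D2:**
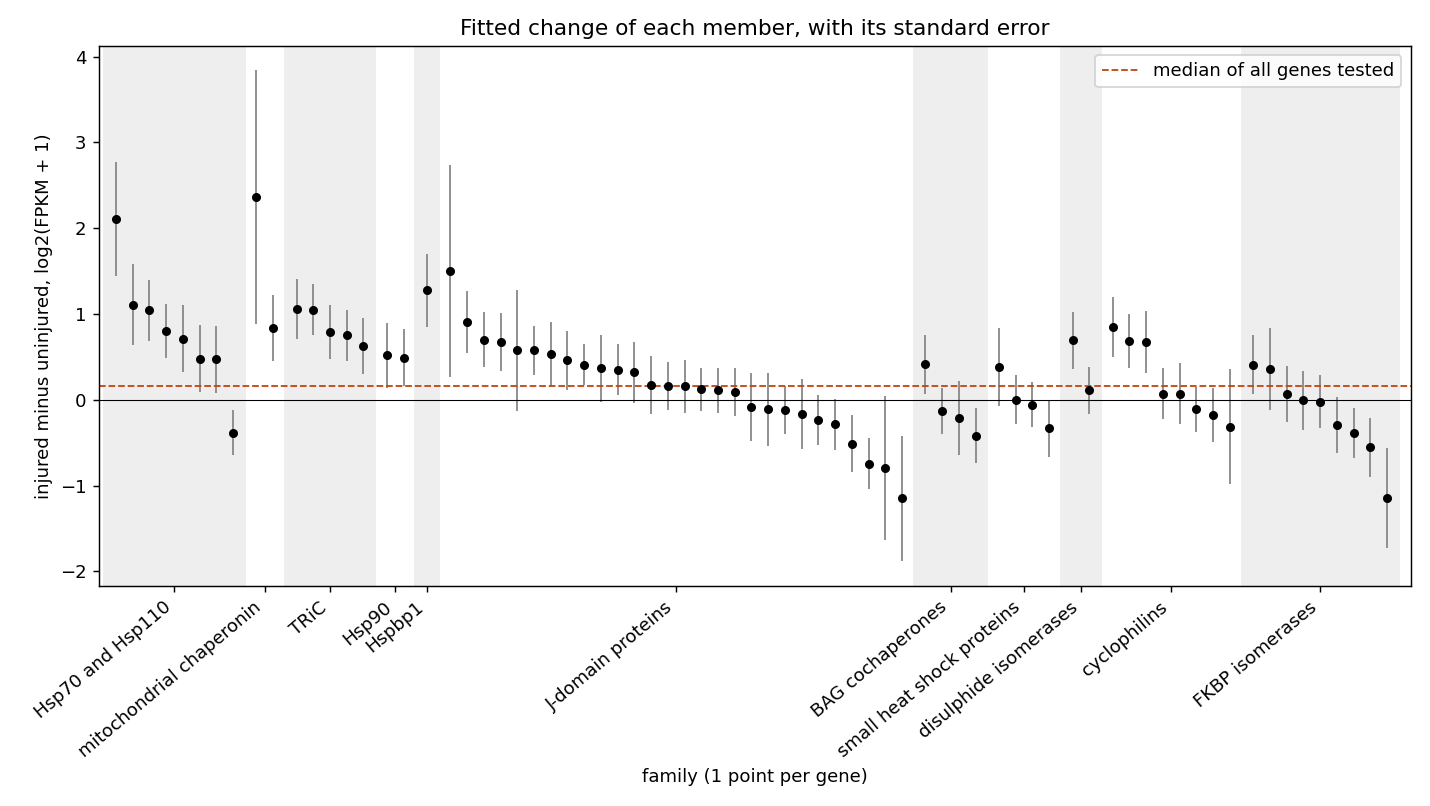
Fitted change of each of the 73 tested members, injured minus uninjured as a log2 difference of FPKM + 1, with its standard error, grouped by family; the dashed line is the median of all genes tested, 0.16. The Hsp70 and Hsp110, mitochondrial chaperonin, TRiC and Hsp90 points lie above that line except for Hspa2, whereas the J-domain proteins spread on both sides.

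The J-domain proteins, the largest family with 30 members, went in both directions. Of 28 tested, 18 had a positive change (64.3%, against 62.9% of all genes). The median was 0.16, which turned to -0.01 with upper-quartile scaling and -0.03 with quantile normalization. Dnajb1, the main cytosolic partner of inducible Hsp70, was at 145, 74.1 and 208 FPKM in injured and 139, 185 and 124 in uninjured libraries. The groups overlapped, with a change of -0.17 ± 0.41 (SE, adjusted p = 0.896) that became 0.24 without injured replicate 2. Dnajb2, a J-domain protein enriched in neurons, was lower in every injured library, at 5.48, 7.15 and 8.73 FPKM against 10.5, 10.4 and 17.4 in uninjured ones. Its change was -0.74 ± 0.29 (SE, adjusted p = 0.397). The summed mature neuron markers given above were lower in the injured libraries too. Without Stoml3 the other 6 overlapped, with injured replicate 2 at 194 FPKM against 119 to 196 in uninjured libraries. The part of those cells in the Dnajb2 value was not tested.

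Besides Dnajc2, Dnajc10 was higher without overlap (12.0% of all genes). Dnajb14 was lower without overlap, as was Dnajb2 (6.75% of all genes). Dnajc16 had the widest log2 range among injured libraries, at 18.3, 2.84 and 1.63 FPKM, against 4.45, 1.78 and 2.87 in uninjured ones, so that injured replicate 1 alone was high. Dnajb13, known from sperm flagella, was listed at 0.001 in every library but injured replicate 1, where it was at 3.61 FPKM. Dnaja4 was at 19.1, 17.4 and 15.5 FPKM in injured libraries and at 0.001, 28.0 and 8.34 in uninjured ones, so that its group difference rests on 1 listing at the lowest value. In all, 7 members stood at that lowest value in at least 1 library.

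The BAG cochaperones and the small heat shock proteins had 1 and 2 positive changes of 4 each. Bag3, which couples Hsp70 to autophagy, was at 34.0, 26.8 and 56.0 FPKM in injured and 42.7, 56.9 and 51.4 in uninjured libraries, with a change of -0.42 ± 0.32 (SE, adjusted p = 0.627). Bag1, which links Hsp70 to the proteasome, was at 65.9, 30.2 and 52.6 FPKM in injured and 26.2, 40.2 and 41.4 in uninjured libraries. Injured replicates 1 and 3 were above all uninjured libraries for Bag1 and not for Bag3. Over the 4 BAG members the median was -0.17.

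Hspb1, the abundant small heat shock protein of epithelia, was at 79.8, 39.1 and 62.5 FPKM in injured and 57.9, 85.7 and 79.8 in uninjured libraries, a mean of 60.5 ± 20.4 against 74.5 ± 14.6 (change -0.33 ± 0.34, SE, adjusted p = 0.720). Hspb8, the partner of Bag3, was at 69.9, 18.5 and 58.5 FPKM in injured and 34.8, 35.4 and 27.5 in uninjured libraries, with injured replicate 2 below and the other 2 above every uninjured library. Its change was 0.38 ± 0.46 (SE, adjusted p = 0.770), 0.03 without injured replicate 1 and 0.96 without injured replicate 2. Hspb6 was at 11.4, 9.27 and 8.33 FPKM in injured and 7.67, 10.9 and 11.9 in uninjured libraries. Hspb11, an intraflagellar transport protein despite its symbol, was at 17.6, 12.6 and 9.52 FPKM in injured and 10.6, 12.8 and 15.6 in uninjured libraries. The last 2 overlapped throughout, with changes of -0.06 and 0.00 that changed sign between settings.

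Folding in the endoplasmic reticulum starts with Hspa5, the Hsp70 of that compartment known as BiP, and its Hsp90 partner Hsp90b1. Hspa5 was at 268, 137 and 338 FPKM in injured and 153, 151 and 201 in uninjured libraries, a mean of 248 ± 102 against 168 ± 28.0 (change 0.47 ± 0.39, SE, adjusted p = 0.656). That change was 0.85 without injured replicate 2 and 0.20 without injured replicate 3. Hsp90b1 was at 314, 206 and 311 FPKM in injured and 179.7, 215 and 188 in uninjured libraries (change 0.49 ± 0.33, SE, adjusted p = 0.586). In both, injured replicates 1 and 3 were above all uninjured libraries and replicate 2 was not. Pdia3, the isomerase that works with calnexin and calreticulin on glycoproteins, was higher in every injured library, at 259, 184 and 243 FPKM against 159, 163 and 105 in uninjured ones. Its change was 0.69 ± 0.33 (SE, adjusted p = 0.478). Pdia6, another disulphide isomerase, was at 49.2, 33.9 and 51.2 FPKM in injured and 45.4, 38.2 and 39.1 in uninjured libraries (change 0.11, which was -0.07 after upper-quartile scaling).

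Of the J-domain partners of Hspa5, Dnajb9, Dnajb11 and Dnajc3 are given here, and differences between them were not tested. Dnajb9, which holds the stress sensor Ire1 with Hspa5, was at 68.6, 31.3 and 67.3 FPKM in injured and 43.6, 32.5 and 51.7 in uninjured libraries (change 0.32 ± 0.36, SE, adjusted p = 0.752). Dnajb11 and Dnajc3, chosen after their values were seen, had changes of 0.70 ± 0.32 and 0.18 ± 0.34 (SE, adjusted p = 0.452 and 0.865). A stress element of the unfolded protein response, searched as CCAAT, 9 bases of any kind and CCACG on both strands of the same windows, was found in 4 of the 65 members, which is 6.15% beside 0.137% of all genes with a window. These were Hspa5, Hsp90b1, Dnajc3 and Pdia6, whose stretches are shown as the members with the element, in capitals.
Hspa5: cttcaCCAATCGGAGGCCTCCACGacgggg
Hsp90b1: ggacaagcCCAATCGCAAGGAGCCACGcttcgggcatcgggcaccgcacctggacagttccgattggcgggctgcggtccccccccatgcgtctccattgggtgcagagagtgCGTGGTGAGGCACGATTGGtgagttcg
Dnajc3: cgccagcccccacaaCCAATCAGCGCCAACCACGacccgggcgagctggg
Pdia6: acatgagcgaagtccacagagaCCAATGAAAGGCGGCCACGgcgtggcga

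The stretches are chr2:34772020-34772049 (plus strand) for Hspa5, chr10:86705525-86705664 (minus strand) for Hsp90b1, chr14:118937812-118937861 (plus strand) for Dnajc3 and chr12:17266469-17266518 (plus strand) for Pdia6, in GRCm38.p6. The Hspa5 match lay 65 to 47 bases before the start. Hsp90b1 held 2 matches, the nearer of them in reverse. The changes of these 4 members, given above, ran between 0.11 and 0.49, none past the threshold.

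Prolyl isomerases, which turn peptide bonds before proline, comprise the cyclophilins and the FK506-binding proteins. Ppia, the cytosolic cyclophilin A, was at 131, 80.5 and 90.8 FPKM in injured and 98.8, 119.8 and 118 in uninjured libraries, and Ppib of the secretory pathway was at 138, 81.1 and 97.6 in injured and 70.6, 141 and 94.6 in uninjured libraries. Both overlapped, with changes of -0.18 and 0.07, the second of them -0.12 after upper-quartile scaling. Ppif, the mitochondrial cyclophilin D named here because it passed without injured replicate 2, was at 36.6, 15.0 and 39.2 FPKM in injured and 16.6, 16.1 and 18.8 in uninjured libraries. Its change was 0.68 ± 0.36 (SE, adjusted p = 0.507; 1.10 and adjusted p = 0.0356 without that library, but 0.44 and adjusted p = 0.725 without injured replicate 3). Over the 8 cyclophilins the median was 0.07, which turned to -0.10 with upper-quartile scaling, -0.07 with quantile normalization and -0.08 without Mir703.

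Of the 9 FK506-binding proteins, 3 had a positive change (62.9% of all genes did). The 2 that were lower in all injured libraries were Fkbp1b and Fkbp14 (6.75% of all genes were lower without overlap). Fkbp1b, which stabilises the ryanodine receptor, was at 0.637, 1.33 and 0.001 FPKM in injured and 2.75, 1.89 and 2.81 in uninjured libraries (change -1.14 ± 0.58, SE, adjusted p = 0.492). Fkbp14, of the endoplasmic reticulum, was at 2.14, 2.58 and 3.52 FPKM in injured and 5.31, 4.27 and 3.86 in uninjured libraries. Both were low genes. Fkbp3, a nuclear isomerase, was at 74.9, 52.9 and 49.5 FPKM in injured and 38.3, 76.4 and 58.3 in uninjured libraries, which overlapped (change 0.07, and -0.12 after upper-quartile scaling).

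**Figure D3:**
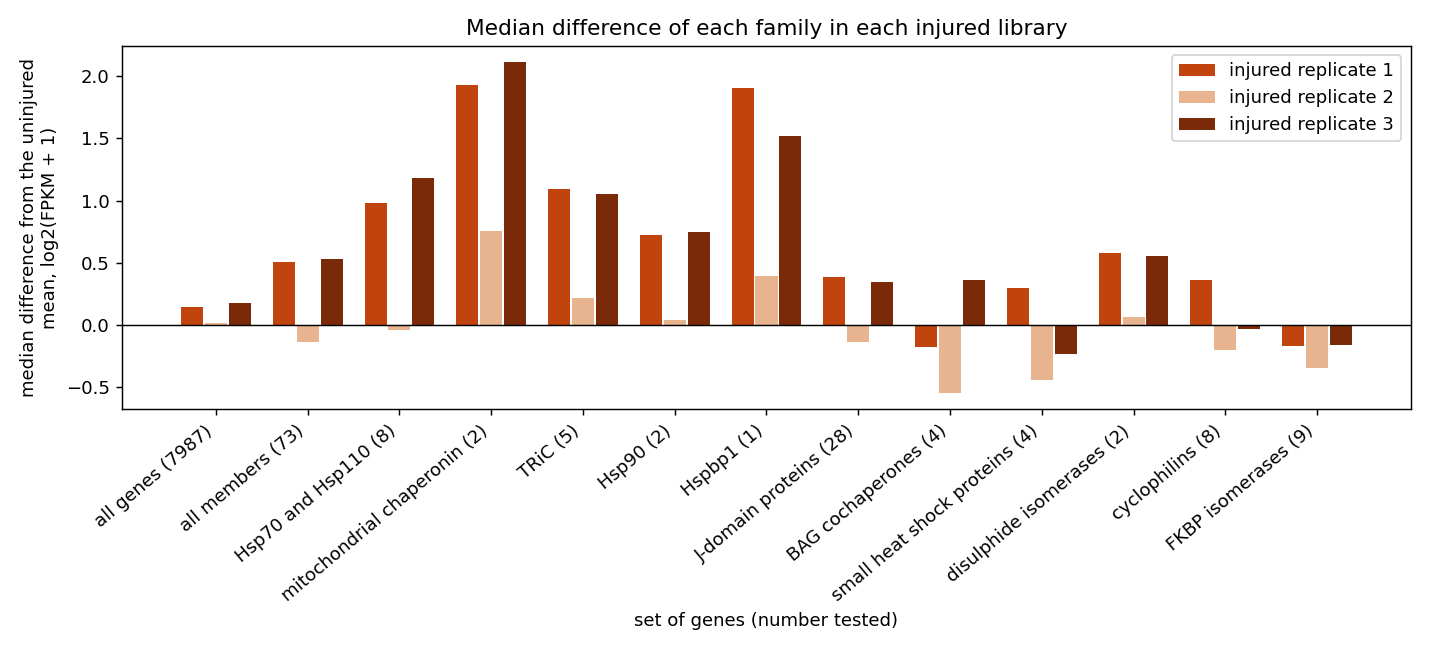
Median difference of each family from the uninjured mean on the log2(FPKM + 1) scale in injured replicates 1, 2 and 3, with the number of genes tested in brackets. Over all members the medians were 0.51, -0.14 and 0.53 and over all genes 0.14, 0.01 and 0.18; the mitochondrial chaperonin bars include the listing of Hspe1 at the lowest value in uninjured replicate 1.

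Injured replicate 2 was the lowest of the 3 injured libraries for 52 of 73 members (71.2%), against 46.8% of all genes tested, and for all 8 Hsp70 and Hsp110 members and all 5 TRiC subunits. In injured replicates 1 and 3 together, a pair set apart with the values known, 36 members (49.3%) exceeded every uninjured library, against 29.4% of all genes. In 11 of these 36 injured replicate 2 did so too. Median differences from the uninjured mean were 0.98, -0.04 and 1.18 for the Hsp70 and Hsp110 family and 1.09, 0.22 and 1.05 for TRiC in injured replicates 1 to 3. Without injured replicate 2, 10 of 73 members were called higher and 0 lower, against 3.52% and 1.17% of all genes in that fit. They were Hsph1, Hspa4l, Hspa9, Hspbp1, Hspd1, Cct2, Cct3, Cct7, Cct8 and Ppif. Without injured replicate 1, 0 members were called, against 0.0126% of all genes higher and 0.0503% lower. Leaving out injured replicate 3 also gave 0 members, against 0.00% of all genes higher and 0.0125% lower. With so few genes called in these 2 fits, the counts of 0 are not particular to the members. Replicate 2 is also the library with the high immature neuron sum given above; the part of those cells in its chaperone levels was not tested.

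By compartment, a grouping from textbook knowledge made after the values were seen, the 9 mitochondrial members had a median of 0.67 with 7 positive changes. The 16 members of the endoplasmic reticulum had a median of 0.25 with 11 positive, and the 48 tested members of the cytosol, nucleus or elsewhere 0.14 with 30 positive. After upper-quartile scaling these medians were 0.49, 0.06 and -0.04, so the sign of the last depends on the scaling. Median differences in injured replicates 1, 2 and 3 were 1.00, -0.18 and 0.96 for the mitochondrial members and 0.48, -0.29 and 0.57 for those of the endoplasmic reticulum.

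Genes that work with these families but lie outside them were examined as 5 lists, in which limma called 0 genes over the 6 libraries. Of 33 partners of the Hsp70, Hsp90 and chaperonin systems 30 had an entry, 28 of them (93.3%, against 62.9% of all genes) with a positive change and a median of 0.50 (0.32 after upper-quartile scaling). At an unadjusted p of 0.05, 7 of the 30 were higher and 0 lower (7.15% and 4.04% of all genes). Stip1, which hands substrates over between Hsp70 and Hsp90, was at 31.4, 17.0 and 32.5 FPKM in injured and 12.5, 14.8 and 13.7 in uninjured libraries, without overlap (change 0.88 ± 0.30, SE, adjusted p = 0.360). Grpel2, a nucleotide exchange factor of mitochondrial Hsp70 and also on the mitochondrial list, was at 10.3, 6.76 and 8.15 FPKM in injured and 5.34, 2.87 and 2.61 in uninjured libraries (change 1.06 ± 0.33, SE, adjusted p = 0.314). Grpel1, on the same lists, overlapped, at 19.4, 4.60 and 7.36 FPKM in injured and 4.20, 1.79 and 15.9 in uninjured libraries. Clusterin, Clu, a secreted chaperone, was at 229, 112 and 208 FPKM in injured and 124, 121 and 168 in uninjured libraries. Without injured replicate 2, 4 of these 30 were called higher (3.52% of all genes in that fit), as were 1 of 22 in the endoplasmic reticulum list (Hyou1, which is on both) and 0 in the other 3 lists. The 4 are named after their values were seen: Stip1, Ahsa2 (listed at 0.001 in every uninjured library and injured replicate 2), Hyou1 and the small heat shock protein Cryab, which was at 121, 19.0 and 115 FPKM in injured and 33.7, 16.9 and 40.5 in uninjured libraries.

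Of 4 heat shock factors 2 had an entry. Hsf1, the main factor of the heat shock response, was at 16.0, 13.0 and 18.0 FPKM in injured and 13.6, 13.7 and 13.6 in uninjured libraries (change 0.18 ± 0.24, SE, adjusted p = 0.799). Hsf2 was at 15.9, 19.9 and 7.62 FPKM in injured and 8.64, 5.78 and 4.71 in uninjured libraries, and here injured replicate 2 was the highest of the 6 (change 1.009 ± 0.37, SE, adjusted p = 0.372). Of the 2, Hsf2 was higher at an unadjusted p of 0.05.

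Of 30 folding enzymes and lectins of the endoplasmic reticulum 22 had an entry, with 16 positive changes (72.7%, against 62.9% of all genes), a median of 0.36 and 4 higher at an unadjusted p of 0.05 (7.15% of all genes). P4hb, the founding disulphide isomerase, was at 128, 58.6 and 108 FPKM in injured and 57.8, 97.4 and 84.3 in uninjured libraries, with overlap. Prkcsh, a glucosidase subunit, was at 17.4, 17.5 and 12.7 FPKM in injured and 6.54, 9.49 and 10.2 in uninjured libraries, without overlap (change 0.80 ± 0.27, SE, adjusted p = 0.360). The other glucosidase subunit, Ganab, overlapped, at 24.6, 22.5 and 49.3 FPKM in injured and 17.0, 36.9 and 17.1 in uninjured libraries. Qsox2, a sulfhydryl oxidase, was at 42.6, 9.57 and 11.2 FPKM in injured and 7.33, 7.98 and 6.01 in uninjured libraries.

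Of 35 genes of the unfolded protein and integrated stress response 22 were tested, with 15 positive changes (68.2%, near the 62.9% of all genes), a median of 0.28 and 3 higher at an unadjusted p of 0.05 (7.15% of all genes). The transcription factor Xbp1 was at 144, 39.1 and 82.7 FPKM in injured and 40.5, 44.7 and 53.7 in uninjured libraries (change 0.74 ± 0.44, SE, adjusted p = 0.547), and Atf4 at 80.3, 53.5 and 110.4 in injured and 59.3, 55.5 and 71.4 in uninjured libraries. Asns, an Atf4 target that makes asparagine, was higher in every injured library, at 19.1, 14.6 and 17.4 FPKM against 7.64, 7.09 and 12.1 in uninjured ones (change 0.88 ± 0.28, SE, adjusted p = 0.316). The amino acid sensing kinase Eif2ak4 was at 13.5, 4.87 and 7.92 FPKM in injured and 3.90, 2.63 and 3.79 in uninjured libraries. Ddit3, the stress factor known as CHOP and named after its values were seen, was listed at 0.001 in injured replicates 1 and 3 and at 7.87 FPKM in replicate 2, against 1.66, 7.51 and 7.26 in uninjured libraries.

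Of 23 genes of mitochondrial import and quality control 20 had an entry and 18 had a positive change (62.9% of all genes did), with a median of 0.48 that was 0.31 after upper-quartile scaling. At an unadjusted p of 0.05, 5 were higher (7.15% of all genes), and 9 were higher without overlap (12.0% of all genes). The inner membrane scaffold Phb2 was at 148, 33.3 and 40.3 FPKM in injured and 17.2, 25.5 and 29.6 in uninjured libraries (change 1.28 ± 0.54, SE, adjusted p = 0.426), with its width set by injured replicate 1. The import receptor Tomm22 was at 50.7, 47.1 and 50.9 FPKM in injured and 37.2, 37.9 and 43.2 in uninjured libraries, a small difference without overlap (change 0.32 ± 0.25, SE, adjusted p = 0.627).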

How the data were processed

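Libraries were Nextera XT preparations of polyA RNA from sorted cells, read on an Illumina HiSeq according to the labels. The deposited values are read as FPKM, since the submitters' processing notes name Cuffdiff and the heading of the gene column is one Cuffdiff writes. FastQC, TopHat and mm9 also stand in those notes. Versions, roles, annotation, gene filter and scaling are not given in the sources used here. Depth is unknown: at most 2.18% of between-library ratios of genes under 5 FPKM came within 1% of each other, which shows no whole-read steps. In 131 entries several symbols are joined, and 549 genes had the lowest value, 0.001, in at least 1 library. No pair of libraries was identical. Where pools may share animals, p-values measure only the spread between these libraries.

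The 3 injured and 3 uninjured libraries were compared by limma 3.58.1 (R 4.3.3) on log2(FPKM + 1) for the 7987 genes averaging 1 FPKM or more. Variances were moderated with trend and robust options, and p-values were adjusted by Benjamini-Hochberg over all of these genes, with a threshold of 0.05. The fit was run on simulated data with independent libraries and the same spread in both groups. Such data cannot show how the fit behaves where injured replicate 2 stands apart from the other injured libraries. Alternatives were a replicate block, each library left out, other filters, pseudocounts, scalings and variance settings. Leaving out Mir703, array weights and leaving out genes at the lowest value were added once the data had been seen. Members, lists and named genes were chosen with earlier results of these data known. Named were all heat shock family members of at least 1 FPKM, the 2 most abundant of each other family, up to 12 with the largest change without overlap, and the 4 widest among injured libraries. Of other lists the 2 most abundant genes and the 2 largest changes without overlap were named. Members were described by counts and medians, with no set test. Plots used matplotlib 3.10.9 under Python 3.11.15.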

Additional observations from a re-analysis of the deposited data

How the results depend on the processing

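The median change of the members kept its sign in all settings, from 0.093 without injured replicate 1 to 0.485 without injured replicate 2. Without injured replicate 1 it was below the median of all genes, 0.152, and in the other settings above it. With the replicate block, limma called 2 of 73 members, both higher (Hsph1 and Hspbp1), beside 1.68% of all genes higher and 1.09% lower. The genes called with the block numbered 221 in all. Without the block, 0 members and 1 gene were called. Deviations of same-numbered libraries correlated at -0.089, 0.068 and -0.078 over genes, and those of other pairs at -0.081 to 0.149. Being deviations from means of 3 libraries, these values cannot exclude that same-numbered libraries shared a batch. Array weights called 2 of 73 members (Hsph1 and Cct3) and 134 genes, with 1.06% of all genes higher and 0.613% lower. With each library left out in turn, 0 to 10 members and 1 to 370 genes were called. The upper ends came without injured replicate 2, where 3.52% of all genes were called higher and 1.17% lower. The genes called numbered 3 with upper-quartile scaling, 4 with quantile normalization, 2 with a pseudocount of 0.1, 6 without trend and robust variances and 2 without genes at the lowest value. Of 625 alternative values for 37 named members, 584 kept direction and side of the threshold, 13 passed it and 28 changed sign, in 7 members. Changes with upper-quartile scaling, quantile normalization, Mir703 left out and array weights were -0.12, -0.071, -0.092 and -0.074 for Fkbp3, -0.17, -0.17, -0.15 and -0.040 for Hspb11 and -0.12, -0.043, -0.090 and -0.012 for Ppib. For Pdia6 the first 3 of these gave -0.074, -0.076 and -0.049, and array weights gave 0.0037 for Dnajb1. Leaving out 1 library gave -0.50 to 0.24 for Dnajb1, -0.29 to 1.15 for Dnajc16, -0.20 to 0.29 for Fkbp3, -0.21 to 0.20 for Hspb11, -0.23 to 0.059 for Hspb6 and -0.16 to 0.33 for Ppib. The cause was not tested. Depth is unknown, so its limits could not be set.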

Other observations

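Entries of the table that join a chaperone symbol with another gene were not counted among the members. The joined entry of Hspa8, the constitutive cytosolic Hsp70, and LOC624853 was at 349, 159 and 471 FPKM in injured replicates 1 to 3 and at 177, 139 and 167 in uninjured replicates 1 to 3. The joined entry of Pdia4 and Mir704 was at 35.5, 19.3 and 39.4 FPKM in injured and 17.5, 17.8 and 18.1 in uninjured libraries. The joined entry of Dnaja1 and Mir207 was at 24.2, 6.46 and 17.0 FPKM in injured libraries, and in uninjured ones it was listed at 0.001 in replicates 1 and 2 and at 7.55 in replicate 3. How much of each value belongs to the chaperone cannot be read from the table.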
